A study of Mus musculus with 12 samples.

Results

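Leukaemic stem cells (LSC) carrying the ZMYM2-FGFR1 fusion were compared with normal haematopoietic stem cells (HSC) in a mouse model of T cell lymphoma, to see how the stem cell fraction of the leukaemia differs from its normal counterpart. The comparison used the 4 arrays that the labels title as leukaemia stem cells (n = 2) or normal HSC (n = 2), out of 12 arrays in the series. The descriptions of the LSC samples also use the word normal, and those of both second replicates carry the number 3; the titles were followed here. LSC were sorted as GFP+ Lin-Sca-1+c-kit+ (LSK) cells from ZMYM2-FGFR1 mice. The labels give bone marrow and spleen as their tissue, the design text gives marrow or spleen of 2 to 3 leukaemic mice per sample, and neither says which organ fed which array; strain, sex and age of these mice, and the promoter that drove the fusion, are not given in the sources used here. HSC were sorted as Lin-Sca-1+c-kit+ cells from normal Balb/c bone marrow, each sample pooled from 5 female mice. The other 8 arrays held T lymphomas, normal double-positive thymocytes and a cell line. They enter below only as levels, in correlations with the LSC arrays and in alternative fits. All samples were total RNA put through 2 rounds of amplification before hybridisation to Affymetrix Mouse430 2.0 arrays, a step that favours the 3' ends of transcripts.

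The LSK gate enriches for stem cells and multipotent progenitors of the marrow, whose identity depends on transcription factors such as Hlf, Mecom, Meis1 and Hoxa9 and on the cytokine receptor Kit. In the fusion, ZMYM2 joins copies of the FGFR1 tyrosine kinase to each other, and the joined kinase is known to signal without ligand through PLCγ, ERK and STAT5. STAT5 is the transcription factor that cytokine receptors such as the interleukin-2 receptor use, and among its target genes are its own feedback inhibitors of the SOCS family.

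Values below are log2 probe set intensities, given for replicate 1 and then replicate 2 of each group. A gene was tested when it lay above log2 5.49, the median of all values of the 4 arrays, in at least 2 arrays. Of 18193 genes with a named probe set 11636 were tested, with limma on the 4 arrays and Benjamini-Hochberg adjustment over all of them, and an adjusted p under 0.05 is called a rise or a fall.

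The LSC arrays differed from each other more than the HSC arrays did. Over the genes tested the Pearson correlation was 0.760 between LSC 1 and LSC 2 and 0.920 between HSC 1 and HSC 2. Across genes the root mean square SD was 1.04 in LSC and 0.576 in HSC, and 4430 genes lay more than 2-fold apart between the LSC arrays, against 1899 between the HSC arrays. LSC 2 correlated at 0.867 to 0.891 with the 4 T lymphomas and at 0.743 and 0.753 with HSC. Its correlation was 0.831 to 0.833 with normal double-positive thymocytes and 0.854 with the cell line. LSC 1 correlated at 0.687 to 0.776 with the T lymphomas and at 0.795 and 0.772 with HSC. With the normal thymocytes it correlated at 0.67 to 0.68, and with the cell line at 0.67. The 3' over 5' ratio of the Actb control probe sets, a sign of RNA quality and of amplification length, was 13.6 and 9.82 in LSC, against 5.79 and 3.91 in HSC. The 3' Actb control probe set had 10.49 in LSC 1 and 13.23 in LSC 2, against 13.23 and 13.65 in HSC, and the 3' Gapdh control had 10.62 in LSC 1 and 13.22 in LSC 2, against 12.77 and 13.47 in HSC. The mean of 14 bacterial spike-in probe sets was 10.90 in LSC 1 and 10.36 in LSC 2, against 9.35 and 9.43 in HSC. LSC 1 was thus the lowest of the 4 arrays for both control genes and the highest for the spikes.

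LSC 1 carried high levels of mast cell genes that were low in LSC 2. Cma1, the mast cell chymase, had 14.22 in LSC 1 and 4.91 in LSC 2, against 6.56 and 5.72 in HSC. Cpa3, the mast cell carboxypeptidase, had 14.48 in LSC 1 and 5.25 in LSC 2, against 9.58 and 9.46 in HSC. Fcer1a, the alpha chain of the high-affinity IgE receptor, had 13.99 in LSC 1 and 5.20 in LSC 2, against 8.52 and 8.26 in HSC. For each of these, LSC 1 stood above and LSC 2 below both HSC arrays. Of 15 mast cell genes tested, a list added after the values were seen, LSC 1 was the highest of the 4 arrays in 12, among them Ms4a2, Hdc, Mitf, Slc18a2, Tpsb2, Cyp11a1 and Gata2. Their summed linear intensity was 129200 in LSC 1 and 19920 in LSC 2, against 15580 and 22220 in HSC, and most of the LSC 2 sum came from Srgn, a granule proteoglycan that many blood cells make, with 13.76 in LSC 1 and 14.07 in LSC 2, against 12.80 and 13.71 in HSC. Mcpt8, a basophil protease, did not follow, with 8.74 in LSC 1 and 4.54 in LSC 2, against 10.70 and 10.11 in HSC. Rnf128, Gpr176, Chn2, Fam110c, Stard13 and Gnai1 were the other genes highest in LSC 1 among the 4 arrays. In bulk RNA, fewer cells of a type and less RNA per cell cannot be told apart.

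The genes highest in LSC 2 over the other 3 arrays compared were of several kinds. Cd247, the zeta chain of the T cell receptor complex, had 6.26 in LSC 1 and 10.75 in LSC 2, against 5.06 and 4.59 in HSC. Ifit1, an interferon-induced RNA-binding protein, had 6.15 in LSC 1 and 12.02 in LSC 2, against 6.97 and 7.25 in HSC. Mmp13, a collagenase, had 5.81 in LSC 1 and 11.50 in LSC 2, against 3.59 and 3.76 in HSC. These genes were far above the other 3 arrays in LSC 2. Pdlim4, Cyp1b1, Dgka (diacylglycerol kinase alpha), St8sia1, B4galnt4, Trbv1 and Grap, an adaptor of lymphocyte signalling, shared the pattern. HSC 1 also carried genes of other cells. Prg2, the major basic protein of eosinophils, had 8.25 and 4.46 in LSC, against 13.31 in HSC 1 and 9.70 in HSC 2, and C1qa, a complement gene of macrophages, had 6.23 and 5.41 in LSC, against 11.35 in HSC 1 and 6.54 in HSC 2. HSC 1 was above HSC 2 in all 13 macrophage markers tested, with a median HSC 1 minus HSC 2 of 3.68, and in 13 of 14 plasma cell and immunoglobulin genes, with a median of 3.25. Macrophage genes were not confined to HSC 1, since LSC 1 was at or above the lower HSC array in 11 of the 13 markers. Among them was C1qb, with 10.86 in LSC 1 and 5.89 in LSC 2, against 11.46 and 6.74 in HSC. In the plasma cell and immunoglobulin list LSC 1 was at or above the lower HSC array in 4 of the 14 genes. Igha was 1 of them, with 13.98 in LSC 1 and 7.37 in LSC 2, against 14.28 and 12.60 in HSC. The part of these other cell types in the results below was not tested, and the plot of list medians gives LSC 1 and LSC 2 apart.

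**Figure D1:**
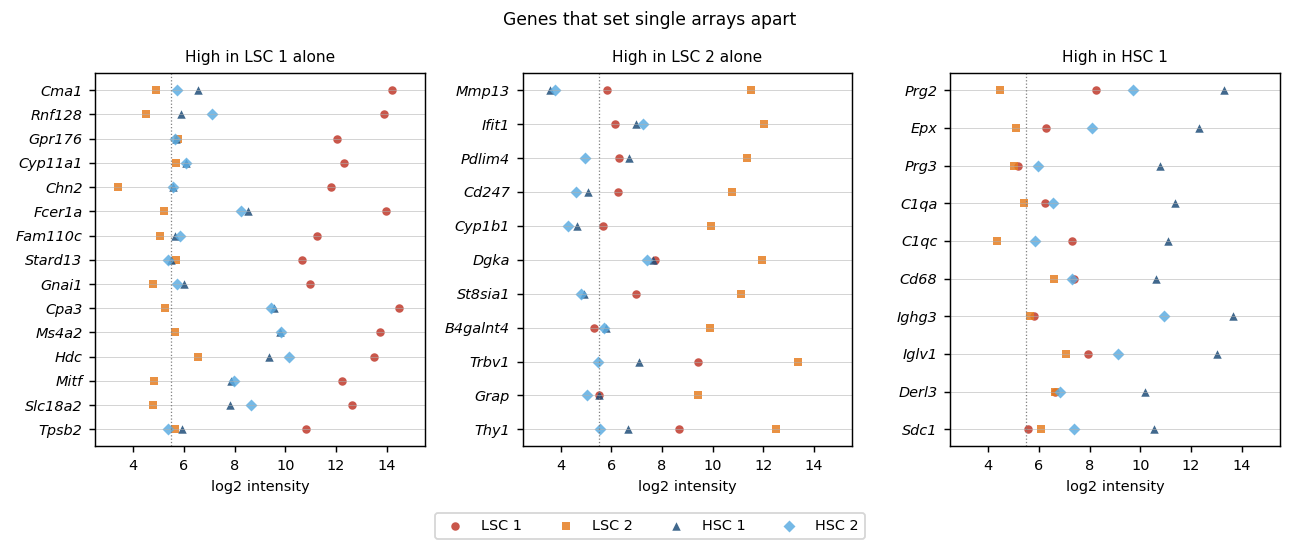
Log2 intensity (x axis) of genes that set single arrays apart, one gene per row, with one symbol per array (red circles LSC 1, orange squares LSC 2, dark blue triangles HSC 1, light blue diamonds HSC 2). The dotted line is the filter level of 5.49; mast cell genes such as Cma1 lie near 14 in LSC 1 and near the dotted line in LSC 2, and the right panel shows eosinophil, macrophage and immunoglobulin genes that HSC 1 holds highest.

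Sex-linked genes separated the groups completely. Eif2s3y, a Y-linked translation factor subunit, had 11.98 and 11.56 in LSC, against 3.55 and 3.82 in HSC. Xist, the RNA that coats the inactive X chromosome, had 7.94 and 7.76 in LSC, against 12.54 and 12.80 in HSC. The Y-linked demethylase genes Kdm5d (9.14 and 8.03 in LSC, 3.36 and 3.28 in HSC) and Uty (6.76 and 7.04 in LSC, 3.40 and 3.63 in HSC) followed Eif2s3y. The HSC came from female mice, and the sex of the LSC mice is not given. The sex of the cells and the leukaemia cannot be told apart in this comparison. Nor can the strain of the LSC mice or the organ behind each LSC array, which are not given.

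Of the 11636 genes, 6 rose in LSC (0.0516%) and 0 fell (0%), and at an unadjusted p under 0.05 there were 577 higher and 895 lower. The genes that rose were Ifng, Eif2s3y, Gzma, Ctla4, Il2ra and Ddc. Ifng encodes interferon gamma, a cytokine of effector lymphocytes. It had 12.80 and 12.46 in LSC, against 3.76 and 3.79 in HSC. Gzma, the cytotoxic granule protease granzyme A, had 14.24 and 14.59 in LSC, against 6.48 and 6.59 in HSC. Ctla4, an inhibitory receptor of T cells, had 12.81 and 12.73 in LSC, against 4.92 and 4.91 in HSC. All 3 are genes of activated T or natural killer cells, and the LSC arrays lay within 0.34 of each other for each. Il2ra, which makes the interleukin-2 receptor one of high affinity, had 12.76 and 12.79 in LSC, against 5.38 and 4.76 in HSC. Ddc, which encodes dopa decarboxylase, had 11.11 and 11.25 in LSC, against 4.13 and 3.95 in HSC. The log2 differences were 8.85 ± 0.41 (SE) for Ifng, 8.09 ± 0.43 for Eif2s3y, 7.88 ± 0.42 for Gzma, 7.85 ± 0.40 for Ctla4, 7.71 ± 0.45 for Il2ra and 7.14 ± 0.41 for Ddc (limma, Benjamini-Hochberg adjusted p = 0.0413 for each). Gzma, the only one with HSC values above the filter level, was 236-fold higher in LSC. RefSeq (GRCm38.p6) places Ifng on chromosome 10, Eif2s3y on Y, Gzma on 13, Ctla4 on 1, Il2ra on 2 and Ddc on 11.

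For Ifng, Eif2s3y, Ctla4, Il2ra and Ddc both HSC values lay under the filter level of 5.49, so the size of these rises is uncertain. A second probe set of Il2ra had 7.84 and 11.62 in LSC, against 4.30 and 4.52 in HSC, and the second probe sets of Ddc and Eif2s3y stayed under the filter level in all 4 arrays. The 6 calls were lost without the filter, with an offset of 16 added to the intensities, and without either HSC array, where the smallest adjusted p was 0.0657, 0.0555, 0.868 and 1.00 (limma, Benjamini-Hochberg). With the median of a gene's probe sets Ddc, Eif2s3y and Il2ra lost theirs, with log2 differences of 3.82, 4.29 and 6.51 (limma, adjusted p = 0.119 for each). The called genes other than Ifng were bright in the 4 T lymphomas too. Gzma had 14.18 to 15.18 there (median 14.58) and Il2ra 13.29 to 13.73 (median 13.56). Ctla4 had 11.24 to 14.31, Ddc 11.24 to 13.09 and Eif2s3y 11.94 to 12.55. Eif2s3y was also bright in normal double-positive thymocytes, with 12.15 to 12.62, and Gzma had 10.46 to 10.75 there. Ctla4, Ddc, Ifng and Il2ra lay between 5.19 and 6.57 in these thymocytes. Ifng ranged between 6.55 and 13.37 (median 8.82) in the T lymphomas. These levels come from arrays normalized apart from the LSC arrays.

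With only 2 arrays per group and a wide spread in LSC, the position of the arrays describes more genes than the test. Both LSC arrays lay above both HSC arrays in 2229 genes (19.2%) and below both in 2826 (24.3%), by 2-fold or more in 1022 and 1613 of them. The LSC arrays lay on opposite sides of the HSC arrays in 1241 genes with LSC 1 above (10.7%) and 1156 with LSC 2 above (9.93%). When all 12 arrays shared 1 estimate of the spread, 555 genes passed as higher (4.77%) and 903 as lower (7.76%); most of the arrays behind that estimate are those of the other groups. The percentages of 19.2 and 24.3 are the background against which the counts of list members below are to be read.

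**Figure D2:**
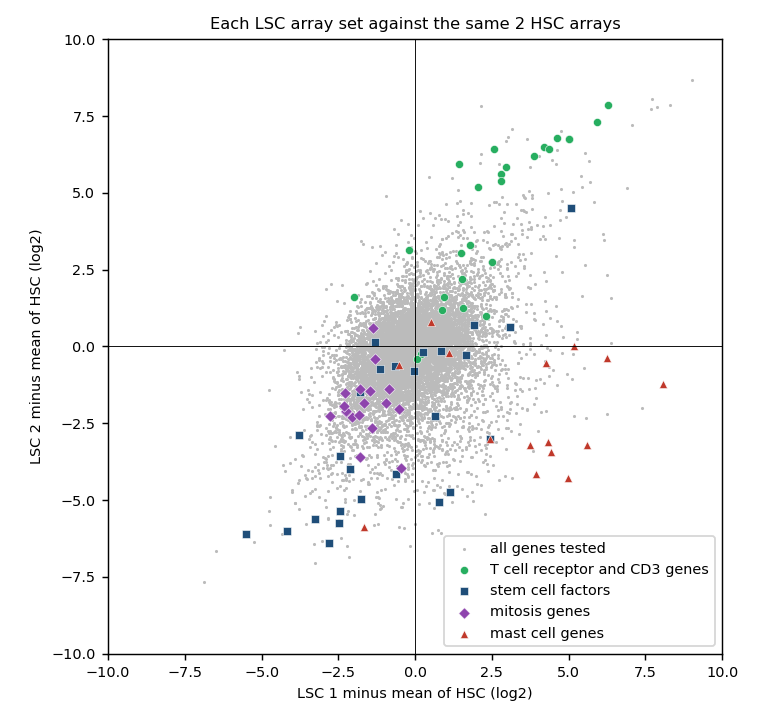
Each of the 11636 genes tested by its log2 difference from the HSC mean in LSC 1 (x axis) and in LSC 2 (y axis), with 4 gene lists coloured. Both axes share the same HSC arrays, so part of the common slope is fixed by that; most T cell receptor and CD3 genes lie high in both arrays and further out in LSC 2, and most mast cell genes, a list added after the values were seen, lie to the right and below.

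Below the 6 called genes, 9 further genes had the smallest p among those higher in both LSC arrays. Txk, a T cell tyrosine kinase of the TEC family, had 9.95 and 10.31 in LSC, against 4.52 and 4.05 in HSC. Itgae, the integrin alpha chain of intraepithelial T cells, had 11.82 and 11.59 in LSC, against 6.69 and 6.10 in HSC, and its second probe set had 11.64 and 10.73 in LSC, against 6.50 and 5.55 in HSC. Camk4, a calcium-dependent kinase, had 10.29 and 11.89 in LSC, against 4.07 and 3.95 in HSC. These genes did not overlap between the groups, yet did not pass (limma, adjusted p = 0.110 for Txk, 0.120 for Itgae and 0.134 for Camk4). The sarcomere gene Neb, Morc1, Rnf157 and the matrix proteoglycan Vcan were among the 9 as well, as were Trgv1 and Mycn; Neb and Morc1 had smaller p than Itgae and Camk4. For Mycn, a MYC family factor, the probe sets disagreed. The brighter one had 11.46 and 10.91 in LSC, against 6.33 and 6.46 in HSC, and another had 7.02 and 6.23 in LSC, against 9.47 and 9.51 in HSC.

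At the other end the genes lower in both LSC arrays were led by a stem cell factor. Hlf, a transcription factor that marks the most primitive HSC, had 5.37 and 4.77 in LSC, against 10.66 and 11.10 in HSC, and its second probe set had 5.23 and 4.46 in LSC, against 10.10 and 10.44 in HSC. Bex1 had 6.31 and 5.19 in LSC, against 11.31 and 11.82 in HSC. Adgrl4, an adhesion receptor of endothelial and stem cells, had 5.89 and 4.79 in LSC, against 10.27 and 10.97 in HSC. Both LSC arrays were near or under the filter level for all 3, and none passed (limma, adjusted p = 0.110 for Hlf, 0.143 for Bex1 and 0.155 for Adgrl4). Pgr, the progesterone receptor gene, Krt18, Tmem176b, Hacd4, Ppic, Macrod1, Dipk1b, Dcaf12l1, 9030619P08Rik, the basement membrane collagen Col4a1 and the immunoglobulin segment Igkv15-103 were the others beside Xist, with differences between -3.24 and -7.27. Igkv15-103 had 4.44 and 3.63 in LSC, against 12.10 in HSC 1 and 10.50 in HSC 2, so both HSC arrays held it high.

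**Figure D3:**
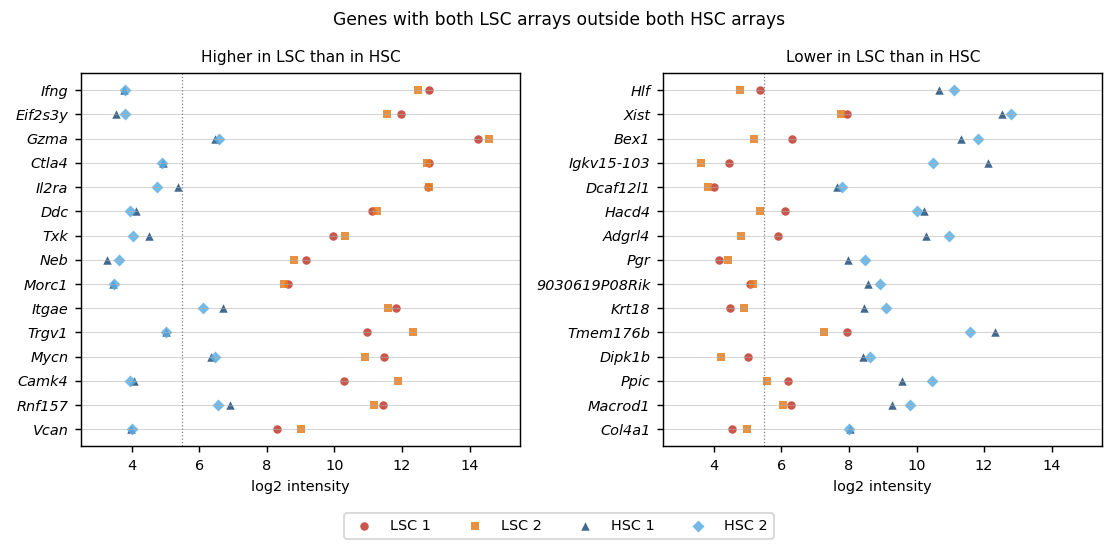
Log2 intensity (x axis) in the 2 LSC and 2 HSC arrays for the 15 genes named in each direction, one gene per row with one symbol per array; the dotted line is the filter level of 5.49. Only the top 6 rows on the left passed the test; the LSC and HSC symbols do not overlap in any row.

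Stem cell transcription factors were lower in LSC 2 and divided in LSC 1. Of 26 tested, both LSC arrays lay below both HSC arrays in 14 and above in 3, and 0 passed. Their median difference from the HSC mean was -0.89 in LSC 1 and -2.96 in LSC 2, against -0.08 and -0.07 over all genes. LSC 1 was nevertheless the highest of the 4 arrays in 10 of the 26, and LSC 2 in 0. Mecom, needed for stem cell maintenance, had 5.92 and 4.08 in LSC, against 9.80 and 10.38 in HSC. Prdm16, another factor of this family, had 3.96 and 4.85 in LSC, against 7.61 and 7.86 in HSC. Ndn, an imprinted gene linked to quiescence of stem cells, had 6.40 and 4.05 in LSC, against 9.61 and 9.69 in HSC, and 4 further probe sets ran the same way. For these factors neither LSC array kept the level of HSC. Others were graded between the LSC arrays. Meis1 had 8.19 in LSC 1 and 4.93 in LSC 2, against 10.36 and 10.99 in HSC, and Hoxa9, its partner in leukaemia, had 9.18 in LSC 1 and 5.60 in LSC 2, against 11.62 and 12.36 in HSC. Lmo2, Lyl1, Erg and Gfi1b were likewise lowest in LSC 2. Tal1, which forms a complex with Lmo2, was at least as high in LSC 1 (11.33) as in HSC (10.17 and 10.93) and low in LSC 2 (5.49), and Hhex had the same form. Gata2, which is also a mast cell factor, had 12.39 in LSC 1 and 6.94 in LSC 2, against 10.12 and 9.80 in HSC. The members above both HSC arrays were Fli1 (11.69 and 9.22 in LSC, 7.98 and 9.19 in HSC, with another probe set at -0.49), Ikzf2 (11.95 and 10.72 in LSC, 9.82 and 10.22 in HSC, with another probe set at 0.05) and Mycn.

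Receptors of stem cells divided in the same way. Kit, which the sort selected for, had 12.31 and 10.99 in LSC, against 11.00 and 11.43 in HSC, and the groups overlapped. Cd34, a sialomucin of progenitors, was at the level of HSC in LSC 1 (10.63) and low in LSC 2 (5.10), against 10.48 and 11.50 in HSC. Of 20 stem cell surface genes tested, 11 lay below and 2 above both HSC arrays, with medians of -0.93 in LSC 1 and -1.78 in LSC 2. Adgrg1, an adhesion receptor of stem cells, had 6.27 and 6.52 in LSC, against 9.82 and 9.42 in HSC. Tek, the angiopoietin receptor, had 4.66 and 4.08 in LSC, against 7.13 and 7.56 in HSC, and Eng and Tie1 were also low in both LSC arrays. Flt3, a cytokine receptor of multipotent progenitors, had 8.58 and 5.89 in LSC, against 9.52 and 9.57 in HSC. Slamf1, the CD150 receptor, and the orphan receptor Gpr171 were the members above both HSC arrays. Sca-1, encoded by Ly6a, was not analysed here. Ptprc, the pan-leukocyte phosphatase CD45, had 14.09 and 13.99 in LSC, against 12.26 and 12.31 in HSC, although another of its probe sets had a difference of 0.25.

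Genes of the myeloid, erythroid and megakaryocyte branches were lower as groups. Of 20 neutrophil and myeloid progenitor genes 12 lay below both HSC arrays and 0 above, with medians of -0.60 in LSC 1 and -3.79 in LSC 2. Elane, neutrophil elastase, had 6.74 and 6.14 in LSC, against 10.62 and 12.40 in HSC. Csf3r, the G-CSF receptor, had 6.01 and 5.35 in LSC, against 8.79 and 9.57 in HSC, and the granule proteases Prtn3 and Ctsg were below both HSC arrays too. Of 16 erythroid and megakaryocyte genes, 12 lay below both HSC arrays and 0 above, with medians of -2.25 in LSC 1 and -3.82 in LSC 2. Klf1, the erythroid master factor, had 7.59 and 5.36 in LSC, against 10.32 and 11.97 in HSC. Vwf, von Willebrand factor, which marks megakaryocyte-biased stem cells, had 6.85 and 4.78 in LSC, against 9.78 in both HSC arrays. Epor, the erythropoietin receptor, and Gp1bb, a platelet glycoprotein, were lower in both LSC arrays as well, although another probe set of Gp1bb had a difference of 0.58. None of these genes passed.

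T cell genes ran the other way. Of 26 tested genes of the T cell receptor and CD3 complex, both LSC arrays lay above both HSC arrays in 22 and below in 0, with medians of 2.41 in LSC 1 and 5.31 in LSC 2, and 0 passed (limma, adjusted p between 0.134 and 0.984). LSC 2 was the highest of the 4 arrays in 22 of the 26 and LSC 1 in 2. Trgv1, a gamma chain variable segment of the T cell receptor, had 10.95 and 12.32 in LSC, against 5.02 in both HSC arrays, and Trgv4 had 9.74 and 11.47 in LSC, against 5.01 and 4.42 in HSC. Cd3g, a signalling chain of the receptor, had 9.71 and 12.01 in LSC, against 6.11 and 4.91 in HSC. Themis, needed for thymocyte selection, had 10.10 and 11.85 in LSC, against 5.21 and 4.95 in HSC. LSC 1 was thus between HSC and LSC 2 for these genes. Cd8a had 8.81 and 11.70 in LSC, against 6.27 and 5.42 in HSC, and Thy1, the marker of T cells and thymocytes, had 8.67 and 12.51 in LSC, against 6.64 and 5.54 in HSC. Cd4 did not follow Cd8a, with 6.28 and 5.81 in LSC, against 6.86 and 5.57 in HSC, and the brightest probe set of the kinase gene Zap70 overlapped between the groups too, with 7.63 and 7.20 in LSC, against 7.71 and 7.20 in HSC. Its 2 other probe sets were above HSC in both LSC arrays, by 3.00 and 1.38. Of 20 T lineage factors and Notch genes, 10 lay above and 1 below both HSC arrays, with medians of 0.95 in LSC 1 and 0.68 in LSC 2. Bcl11b, which commits progenitors to the T lineage, had 10.86 and 11.03 in LSC, against 6.42 and 4.49 in HSC, and Lef1, a Wnt pathway factor, had 9.11 and 9.17 in LSC, against 5.75 and 4.91 in HSC. The 3 further probe sets of Bcl11b differed by 2.60, 2.92 and 3.44, and for 1 of them LSC 1 (6.54) lay within HSC (6.62 and 5.54). Ets1 and Runx3 were above both HSC arrays. The Notch targets Hes1, Hes5 and Heyl overlapped between the groups, as did Notch1, and Nrarp was below both HSC arrays.

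Lymphoid priming genes were mixed, with 5 of 15 above and 4 below both HSC arrays and medians of -0.09 in LSC 1 and 0.78 in LSC 2. Rag1, the recombinase of antigen receptor genes, had 10.92 and 11.27 in LSC, against 7.48 and 6.93 in HSC. Il7r, the interleukin-7 receptor alpha chain, had 11.28 and 12.41 in LSC, against 8.97 and 7.80 in HSC, and the chromatin organiser Satb1 had 12.48 and 12.14 in LSC, against 9.58 and 10.47 in HSC. The transcription factor genes Bcl11a and Tcf4 and the immunoglobulin gene Ighm were below both HSC arrays, although 1 of the other probe sets of Bcl11a had a difference of -0.16 and 1 of Ighm a difference of 0.48. Dntt, the terminal transferase, was high in every array, with 11.44 and 12.62 in LSC, against 11.50 and 12.18 in HSC.

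The lists of cytotoxic, checkpoint and cytokine receptor genes held 4 of the 6 called genes, where 0.0516% of all genes tested were called higher. These lists were chosen with earlier results of these data known, so this count is no support for a theme. Of 15 cytotoxic and cytokine genes 9 lay above and 2 below both HSC arrays, with medians of 0.84 in LSC 1 and 1.10 in LSC 2, and Ifng and Gzma rose. Gzmb, granzyme B, had 10.69 and 10.65 in LSC, against 5.44 and 6.40 in HSC (limma, adjusted p = 0.155). Perforin (Prf1) was near the filter level in all arrays, with 6.02 and 5.68 in LSC, against 5.53 and 5.51 in HSC, and the chemokine gene Ccl3 was lower, with 5.41 and 4.33 in LSC, against 7.54 and 8.14 in HSC. The natural killer receptor gene Klrd1 had 5.72 and 5.23 in LSC, against 6.35 and 5.10 in HSC, and the groups overlapped. Of 12 checkpoint and costimulatory receptors 9 lay above and 0 below both HSC arrays, with medians of 1.81 in LSC 1 and 2.40 in LSC 2, and Ctla4 rose. Icos, a costimulatory receptor, had 10.79 and 10.37 in LSC, against 6.69 and 6.12 in HSC, and Btla, an inhibitory receptor, had 12.52 and 10.90 in LSC, against 8.92 and 6.96 in HSC. Pdcd1, which encodes PD-1, was higher in LSC 2, with 6.06 in LSC 1 and 8.93 in LSC 2, against 4.62 and 4.76 in HSC. Of 8 receptor and JAK genes of the common gamma chain family 4 lay above and 1 below both HSC arrays, with medians of 0.44 in LSC 1 and 1.37 in LSC 2, and Il2ra rose. Jak3, the kinase of the common gamma chain, was the member below, with 6.06 and 5.96 in LSC, against 8.02 and 8.16 in HSC.

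**Figure D4:**
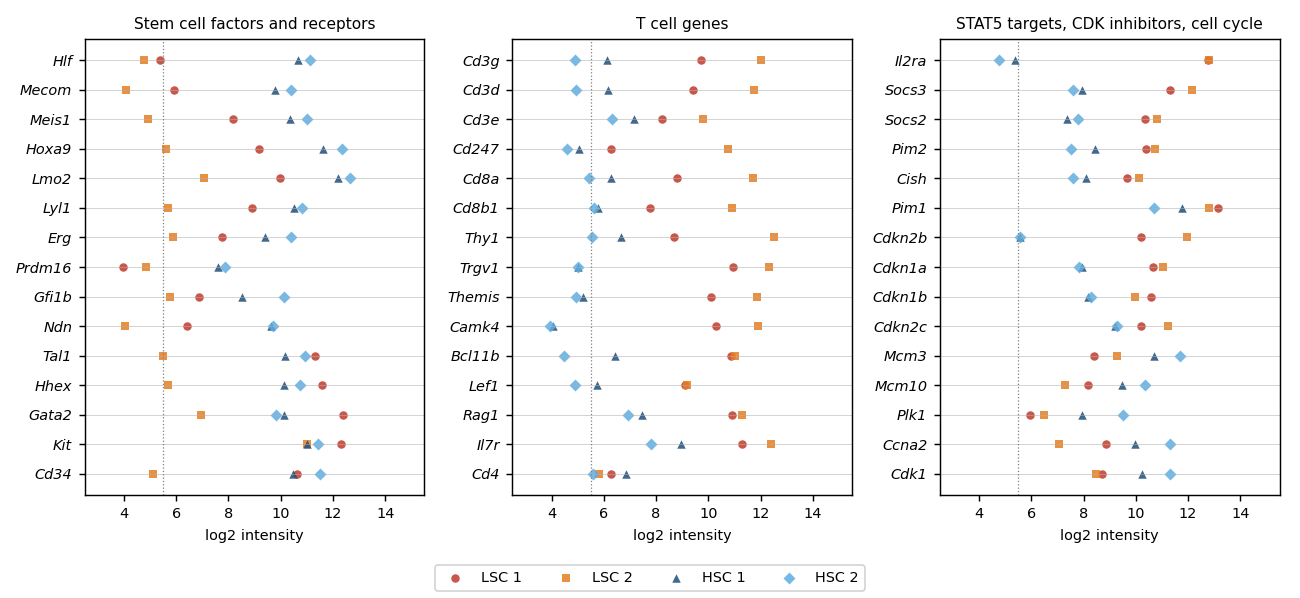
Log2 intensity (x axis) of stem cell genes, T cell genes, and STAT5 targets with cell cycle genes, one gene per row and one symbol per array; the dotted line is the filter level of 5.49. Hlf, Mecom and Prdm16 are low in both LSC arrays, Tal1, Hhex, Gata2 and Cd34 are low in LSC 2 only, and Socs3, Socs2, Pim2 and Cish lie above HSC in both LSC arrays.

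STAT5 and its targets were mostly higher in both LSC arrays. Of 13 tested, which include the factors Stat5a and Stat5b themselves, 10 lay above and 1 below both HSC arrays, and Il2ra rose; the medians were 1.80 in LSC 1 and 1.16 in LSC 2. Socs3, a feedback inhibitor of JAK kinases, had 11.30 and 12.16 in LSC, against 7.94 and 7.58 in HSC, and its 2 further probe sets differed by 1.48 and 3.58. Socs2, of the same family, had 10.35 and 10.80 in LSC, against 7.38 and 7.78 in HSC. Cish, a SOCS family member and direct STAT5 target, had 9.64 and 10.10 in LSC, against 8.09 and 7.61 in HSC. Among the 10 were Stat5a, with 9.04 and 8.47 in LSC, against 7.46 and 7.73 in HSC, and Stat5b, with 9.63 and 9.87 in LSC, against 8.74 and 9.30 in HSC. The pro-survival kinase genes Pim1 and Pim2 were above both HSC arrays as well, Pim2 with 10.39 and 10.73 in LSC, against 8.44 and 7.52 in HSC. Another probe set of Pim1 had a difference of 0.14. Bcl6, a transcriptional repressor of lymphocytes, had 10.00 and 8.09 in LSC, against 7.77 and 6.78 in HSC, and Ccnd3, a D-type cyclin, was below both HSC arrays, while its 2 other probe sets differed by 1.15 and 0.13. Except for Il2ra none passed (limma, adjusted p = 0.155 for Socs3, 0.165 for Socs2, 0.241 for Cish and 0.472 for Bcl6). Targets that STAT5 raises and targets that it lowers, such as Bcl6 may be, were not told apart in this list. The counts therefore give no direction of STAT5 activity, which was not tested.

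The STAT5 dimer binds the palindrome TTCNNNGAA, and this word was searched in the RefSeq promoter windows (GRCm38.p6), 250 bases before to 50 after each start; the palindrome reads alike on both strands. A match was found in 8.30% of 32851 windows and in 9.55% of genes, and 2 or more matches in 0.457% of windows. Of the 15 list members 12 had a window, and Bcl6, Cish, Lta and Socs3 had a match, while Il2ra, Pim1 and Pim2 had none in this window. The stretches of the 3 genes with intensities above are shown because these genes lay above HSC in both LSC arrays, with the matches in capitals:
Bcl6, chr16:23981348-23981467, minus strand: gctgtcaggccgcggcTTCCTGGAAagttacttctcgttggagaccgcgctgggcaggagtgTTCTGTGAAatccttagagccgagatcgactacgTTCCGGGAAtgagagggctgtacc
Cish, chr9:107296654-107296683, plus strand: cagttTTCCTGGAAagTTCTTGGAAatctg
Socs3, chr11:117969457-117969576, minus strand: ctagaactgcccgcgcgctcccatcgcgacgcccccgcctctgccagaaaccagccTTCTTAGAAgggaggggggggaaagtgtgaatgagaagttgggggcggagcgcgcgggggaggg
The Bcl6 matches begin 168, 122 and 88 bases before its start, the Socs3 match 154 bases before, and the Cish matches at bases 1 and 12 of the transcript. Bcl6 held 3 matches in this window, Cish 2 and Socs3 1. A second Bcl6 window held 1 match. A match describes the letters only.

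Genes close to the fusion kinase were less uniform. Zmym2, the 5' partner of the fusion, had 10.30 and 10.58 in LSC, against 8.97 and 9.77 in HSC, and its other probe set overlapped between the groups with a difference of 0.18. Fgfr1 had 3 probe sets, none above the filter level in 2 arrays; they had 6.04 and 5.11, 4.57 and 4.30, and 6.15 and 4.63 in LSC, against 5.30 and 4.72, 4.35 and 4.09, and 4.36 and 4.40 in HSC. It was not checked whether the fusion retains the sequence that these probe sets read. Among the adaptors of the kinase, Plcg1, the phospholipase of T cells, had 10.47 and 9.84 in LSC, against 8.73 and 8.81 in HSC, while Plcg2, the form of B and myeloid cells, had 9.24 and 9.01 in LSC, against 11.04 and 10.91 in HSC. Gab1, a docking protein, was below both HSC arrays. Grb2 had 10.44 and 10.50 in LSC, against 9.25 and 9.19 in HSC, with another probe set at -0.16. Feedback genes of ERK signalling split between the LSC arrays. Dusp6, an ERK phosphatase that ERK itself induces, had 11.16 in LSC 1 and 4.77 in LSC 2, against 8.84 and 8.41 in HSC. Spry2, Spred1 and Etv5 had the same form, high in LSC 1 and low in LSC 2, whereas Spred2, Dusp4, Dusp10 and Phlda1 were among the 8 of 15 above both HSC arrays, Spred2 with 2 other probe sets at 0.19 and 0.46. Egr1 was the 1 member below both, with 10.74 and 8.95 in LSC, against 12.39 and 11.65 in HSC. It also belongs to the immediate early genes, of which 9 of 18 lay below both HSC arrays and 1, Klf6, above, with 1 of its 4 other probe sets at 0.42. Ier2 had 6.95 and 8.25 in LSC, against 11.79 and 11.20 in HSC, and Zfp36 had 8.09 and 6.93 in LSC, against 11.30 and 10.55 in HSC.

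Genes of cell division were lower in both LSC arrays. Of 22 DNA replication genes, 15 lay below and 0 above both HSC arrays, with medians of -1.66 in LSC 1 and -1.37 in LSC 2. Mcm3, a subunit of the replicative helicase, had 8.40 and 9.29 in LSC, against 10.68 and 11.67 in HSC. Of 18 mitosis genes, 14 lay below and 0 above, with medians of -1.73 in LSC 1 and -1.99 in LSC 2. Cdk1, the kinase that starts mitosis, had 8.71 and 8.48 in LSC, against 10.24 and 11.31 in HSC. Plk1, a mitotic kinase, had 5.96 and 6.48 in LSC, against 7.95 and 9.51 in HSC. Single members differed between the LSC arrays, such as the mitotic kinase gene Aurkb with 9.17 in LSC 1 and 5.65 in LSC 2, against 9.14 and 10.10 in HSC. HSC 2 was above HSC 1 in all 18 mitosis genes, with a median HSC 1 minus HSC 2 of -1.23, and the median over the replication genes was -0.97. None passed (limma, adjusted p = 0.263 for Mcm3, 0.257 for Cdk1 and 0.278 for Plk1). In the list of CDK inhibitors and tumour suppressors, 6 of 11 genes lay above and 1 below both HSC arrays, with medians of 0.55 in LSC 1 and 0.78 in LSC 2; the 6 were the CDK inhibitor genes Cdkn1a, Cdkn1b, Cdkn2b and Cdkn2c, the retinoblastoma gene Rb1 and the lymphoid factor gene Ikzf1. Cdkn2b, which blocks CDK4 and CDK6, had 10.21 and 11.96 in LSC, against 5.57 in both HSC arrays. Cdkn1a, the p21 gene, had 10.66 and 11.04 in LSC, against 7.92 and 7.83 in HSC, and Cdkn1b, the p27 gene, had 10.58 and 9.96 in LSC, against 8.16 and 8.27 in HSC. Cdkn1c, the p57 gene known for stem cell quiescence, was the member below, with 5.34 and 5.47 in LSC, against 6.84 and 7.27 in HSC. None of these 4 passed (limma, adjusted p = 0.155, 0.165, 0.231 and 0.271).

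Of 16 MYC targets and ribosome biogenesis genes 8 lay below and 0 above both HSC arrays, with medians of -1.09 in LSC 1 and -0.90 in LSC 2. HSC 2 was above HSC 1 in all 16, with a median HSC 1 minus HSC 2 of -0.96, of like size. Srm, spermidine synthase, had 8.39 and 8.43 in LSC, against 11.02 and 11.60 in HSC, and Cad, the enzyme that opens pyrimidine synthesis, had 7.19 and 6.80 in LSC, against 9.61 and 9.89 in HSC. Of 12 glycolysis genes 3 lay above and 3 below both HSC arrays, with medians of 0.34 in LSC 1 and -0.33 in LSC 2. Slc2a1, the glucose transporter GLUT1, stood out among them with 10.96 and 11.41 in LSC, against 7.88 and 8.41 in HSC, and 2 further probe sets differed by 2.80 and 2.12. Of 16 DNA methylation and Polycomb genes 5 lay below both HSC arrays, among them the methyltransferase genes Dnmt1 and Dnmt3b, and 2 above, with medians of 0.10 in LSC 1 and -0.51 in LSC 2.

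In the BCL2 family 5 of 13 genes lay above and 3 below both HSC arrays, with medians of 0.03 in LSC 1 and 0.13 in LSC 2. Bcl2, the inhibitor of cell death, had 11.23 and 10.66 in LSC, against 8.85 and 9.27 in HSC, and its 4 further probe sets differed by 1.36 to 2.51. Its antagonist Bcl2l11 (BIM) had 11.31 and 13.41 in LSC, against 10.69 and 10.16 in HSC. Both a protective and a killing member of the family were thus above HSC. The medians of 10 MHC class I genes were -0.40 in LSC 1 and 0.88 in LSC 2. Of these genes 2 lay above both HSC arrays, near the 19.2% share of all genes tested. Nlrc5, their activator, had 10.10 and 11.12 in LSC, against 8.43 and 8.15 in HSC, and LSC 2 was the highest of the 4 arrays in 9 of the 10. Of 15 interferon response genes 8 lay above and 1 below, with medians of 0.32 in LSC 1 and 1.96 in LSC 2. Gbp2, a guanylate-binding protein induced by interferon gamma, had 11.04 and 13.27 in LSC, against 9.28 and 9.70 in HSC, while Oas1a was below both HSC arrays. Of 15 homing genes 6 lay above and 3 below, with medians of 0.87 in LSC 1 and 0.70 in LSC 2, and Cxcr3, a receptor for interferon-induced chemokines, had 9.70 and 11.06 in LSC, against 8.30 and 5.47 in HSC.

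Markers of B cells, macrophages and stroma were not above HSC in both LSC arrays. Of 10 B cell markers 4 lay below both HSC arrays, of 13 macrophage markers 2, and of 8 stroma and endothelium markers 4. In each list 0 lay above. Over all genes tested the shares were 24.3% below and 19.2% above. Cd79b, a B cell receptor chain, had 6.01 and 6.11 in LSC, against 10.32 and 8.21 in HSC. The summed linear intensity of the macrophage list was 21330 in LSC 1 and 3034 in LSC 2, against 38660 in HSC 1 and 6735 in HSC 2, and the B cell sum was 17890 in LSC 1 and 3694 in LSC 2, against 14500 and 3448 in HSC. Most of the LSC 1 B cell sum came from the MHC class II gene H2-Aa, with 13.62 and 11.13 in LSC, against 12.07 and 10.55 in HSC. Cd79a, another B cell receptor chain, had 6.45 and 6.33 in LSC, against 9.57 and 6.25 in HSC. Of 10 natural killer markers only 4 were tested, and 2 of these lay above both HSC arrays, Gzmb and, near the filter level, Prf1. Ncr1, Klrb1c, Klrc1, Klre1, Klra8 and Eomes were not tested, for want of a named probe set or because they were too dim.

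**Figure D5:**
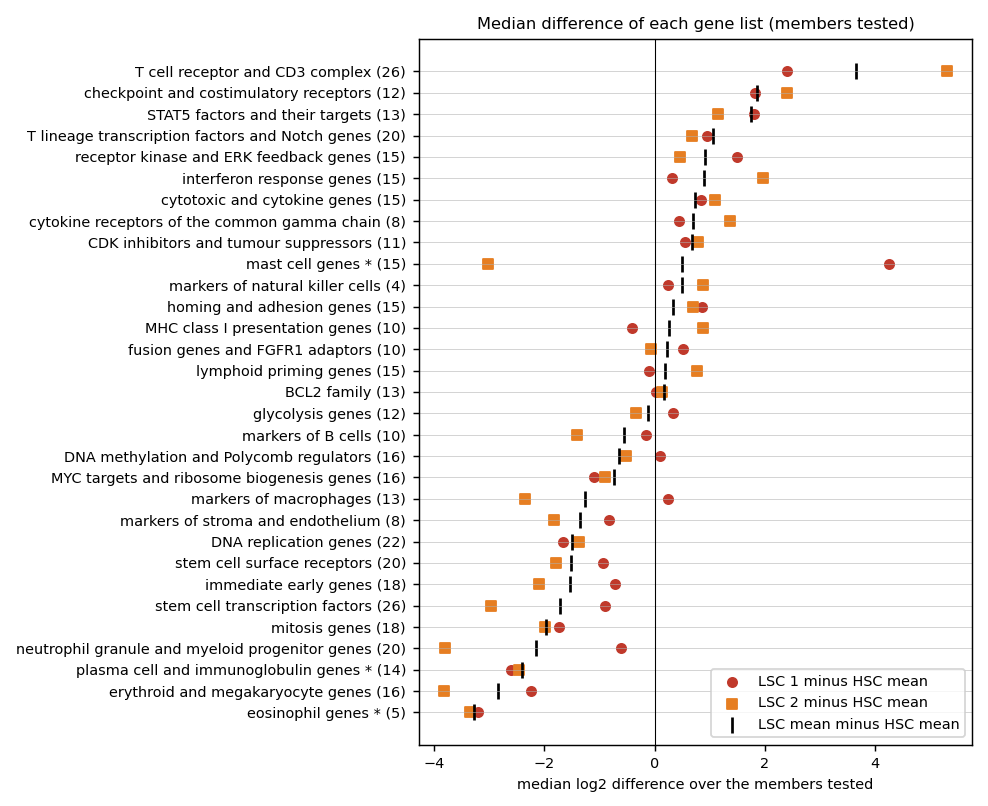
Median log2 difference over the tested members of each list (x axis), with the number tested in brackets, for LSC 1 minus the HSC mean (red circles), LSC 2 minus the HSC mean (orange squares) and the LSC mean minus the HSC mean (black bars); an asterisk marks lists added after the values were seen. The medians of the LSC arrays lie close together for the mitosis and replication lists and furthest apart for mast cell genes.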

How the data were processed

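The series table deposited by the authors holds probe set intensities on the linear scale, for which the submitters' processing notes name RMA without a version; scanner files were not used here. Median intensities were 44.3 to 46.2 in these 4 arrays and 99.5 to 109 in the other 8, so the sets appear to have been normalized apart. Of 45101 probe sets (64 controls), 34945 had 1 gene symbol, 932 several and 9160 none here; only the first were used, 1 per gene, the one with the highest mean over the 4 arrays. Intensities were log2-transformed and fitted with limma 3.58.1 in R 4.3.3 (lmFit, eBayes, two-sided), checked on simulated data. Replicates are pools that the labels call biological; 2 per group limit the precision, and no exact test can pass. The 28 lists (475 genes, 403 tested) and all genes named were chosen with earlier results of these data known, and 4 lists were added after the values were seen. Genes were named by rule: the 15 per direction without overlap between groups, called ones first and then by p; up to 4 per list by the size of t and every called member; the 10 highest in each LSC array alone; and 7 fixed genes (Fgfr1, Zmym2, Kit, Ly6a, Ptprc, Thy1, Cd34). Further list members are shown as examples chosen after their values were seen. Listed genes without a named probe set were not analysed here. Alternatives changed the filter, offset, probe set choice, normalization, weights and samples. Promoter sequences are RefSeq's. No genome build for the arrays is given in the sources used here.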

Additional observations from a re-analysis of the deposited data

How the results depend on the processing

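The counts of calls, 6 higher and 0 lower, depended on the fit. With all 12 arrays in 1 fit there were 555 higher and 903 lower; with a weight for each group, an alternative added after seeing the data, 45 and 53, which kept 5 of the 6 (Ifng had limma adjusted p = 0.191). An intensity trend with robust moderation gave 16 and 3, and the median of a gene's probe sets 3 and 0. No filter, the offset of 16 and the replicate block each gave 0 higher, with 1957, 1481 and 1386 genes at an unadjusted p under 0.05 (limma). Array weights, a stricter filter, quantile normalization and leaving out _x_at and _s_at probe sets kept the 6. Leaving out 1 array gave 0 to 456 higher and 0 to 875 lower: 440 and 875 without LSC 1, 456 and 304 without LSC 2, and 0 of each without HSC 1 or HSC 2. A lone array is assumed to vary like the other group. With 1 LSC array left, the spread came from the HSC arrays alone, whose root mean square SD was 0.576, against 1.04 in LSC. The counts without 1 LSC array thus leave out the spread of LSC and are no gain in evidence. Other causes of the larger counts were not tested. The labels number replicates 1 and 2 in both groups, and the deviations of same-numbered arrays correlated at 0.11 across genes. Whether same-numbered arrays share a batch or a pairing cannot be told from only 2 pairs.

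Of 1994 values of named genes under the alternatives, 10 changed sign, none of them called. With the median of probe sets Mcm10 was at 0.42, B2m at -0.018 and Igll1 at 0.039. Leaving out 1 array in turn gave -0.23 (without LSC 1) to 1.09 for Kit, -1.22 to 0.20 (without LSC 1) for Psmb10, -0.31 (without LSC 2) to 1.61 for Tap1, -0.27 (without HSC 1; -0.25 without LSC 2) to 1.61 for Nkg7, -3.18 to 0.14 (without HSC 1) for Cd79a and -0.87 to 0.37 (without HSC 1) for Klrd1. Of 480 list medians, 15 changed sign, in the lymphoid priming, glycolysis, BCL2, fusion and adaptor, methylation and Polycomb, MHC class I, mast cell, macrophage and B cell lists; the median of the mast cell list was -3.03 without LSC 1. Signal over background limits genes under the filter level, where the size of a difference is uncertain.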

Other observations

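Genes on opposite sides of HSC in the LSC arrays are described here as values. LSC 1 was more than 2-fold above both HSC arrays and LSC 2 more than 2-fold below both in 187 genes, and the converse held in 41. Outside the mast cell list, Hipk2, a nuclear kinase, had 11.75 in LSC 1 and 4.04 in LSC 2, against 9.62 and 9.36 in HSC. Cited2, a transcriptional coregulator required by HSC, had 13.50 in LSC 1 and 7.05 in LSC 2, against 10.92 and 11.31 in HSC. Rab27b, a GTPase of granule secretion, had 11.66 in LSC 1 and 4.40 in LSC 2, against 7.36 and 8.28 in HSC. Tlr3, a receptor for double-stranded RNA, had 11.09 in LSC 1 and 4.72 in LSC 2, against 7.78 and 5.88 in HSC. In each of these genes HSC lay between LSC 1 and LSC 2.

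In the converse set, Kdm6b, a histone demethylase, had 6.31 in LSC 1 and 11.08 in LSC 2, against 9.15 and 9.27 in HSC. Ltb, lymphotoxin beta, had 7.92 in LSC 1 and 12.59 in LSC 2, against 9.30 and 9.38 in HSC. Vgll4, a cofactor of TEAD transcription factors, had 7.54 in LSC 1 and 11.53 in LSC 2, against 8.80 and 8.84 in HSC. Cd27, a costimulatory receptor, had 7.09 in LSC 1 and 10.69 in LSC 2, against 8.69 and 9.45 in HSC. Such genes have a mean difference that describes neither LSC array. All were chosen after their values were seen.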
